A study of Mus musculus with 8 samples.

Results

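The cytochrome P450 genes of the mouse were examined in a list of captured genomic regions from brain tumour and astrocyte lines. The members were all protein-coding genes of the RefSeq annotation (GRCm38.p6, the assembly that mm10 names) whose symbol is Cyp followed by a family number, a subfamily letter and a gene number, and Cyp51, which has no letter. They number 99 of 21887 protein-coding genes. Every deposited region that overlapped the gene, or the 1000 bp on each side of it, by 1 bp or more was assigned to the member, which gave 260 of 220894 regions, none of them shared by 2 members. The DNA came from 8 mouse cell lines and was captured with a kit designed for the mouse methylome before bisulfite sequencing. Brain tumours had given rise to 6 of the lines, 4 of them IDH mutant and 2 IDH wild-type (labelled RAS glioma), and the other 2 were immortalized astrocytes, also IDH wild-type, of which 1 also expressed exogenous wild-type IDH1. The mice behind all 8 lines carried N::TVA, which supplies the receptor for avian retroviral vectors, and Cdkn2alox/lox, on a mix of the strains C57Bl/6, 129 and FVB/n. Atrxlox/lox was added in the mice that gave the IDH mutant tumours and the astrocytes, and was not listed for those that gave the wild-type tumours, so among tumour lines IDH status cannot be told apart from the genotype of the mice. Cultures were kept in DMEM with fetal bovine serum.

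Cytochrome P450 enzymes are haem proteins that insert an oxygen atom into fat-soluble substrates. Members of the families Cyp2, Cyp3 and Cyp4 mostly handle drugs, foreign compounds, fatty acids and eicosanoids, are best known from liver, and in rodents lie in tandem arrays of closely related copies. Other members are largely single genes with set tasks in sterol, steroid, bile acid, vitamin D and retinoid metabolism, and several of them act in brain, where Cyp46a1 turns over cholesterol in neurons and the Cyp26 enzymes break down retinoic acid during patterning. Bisulfite sequencing is mostly used to follow methylation at CpG dinucleotides, and a gene can be followed in this way only where the capture and the reads reach such sites. A gene is called reached here where the list has a region at it. The list holds 1 score per region for the series as a whole and none for a single line. It therefore shows at which P450 genes regions were listed, not how far they were methylated, and mutant and wild-type lines could not be compared. The score is the authors' own value. The track name in the file holds the words min10 and targets and does not explain them, so what the score counts and whether a region is a capture target or a stretch with reads is not stated, and the read depth of each line is unknown. It ran from 100 upwards with a median of 462 over all regions, and was higher for wider regions, so where the width matters a percentile is given too, taken among those regions of the list whose width differs by at most 50 bp. Nothing below has a replicate error, and since neighbouring copies are not independent no test was made between groups of genes.

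With every region counted, the share of P450 genes with a region was that of all genes. Their density of regions and their share with a region at the start were below the values of all genes. A region lay in or within 1000 bp of 83 of the 99 members, against 83.8% of all protein-coding genes. A gene end had a region within 1000 bp in 57 members (57.6%, background 76.5%). The promoter table of RefSeq matched 77 members, and with the strand it gives, 43 of them (55.8%) had a region within 1000 bp of a start site, compared with a background of 74.0%. A region fell on the promoter itself, taken as the 250 bp before and 50 bp after a start site, in 30 of the 77 (39.0%, background 60.3%). At the other end of the gene the count was 20 of 77 (26.0%, background 33.8%). Members had a median of 2 regions, all genes a median of 4, and the density was 0.879 regions per 10 kb of member locus against 1.24 for all genes. The regions covered 4.52% of the member loci and 7.06% of all gene loci. The median region score was 431.5 at members and 477 at all genes. At matched width the median percentiles were 48.1 and 48.9. With widths limited to 400 to 800 bp the scores had medians of 617 and 615, so the difference in score was not seen between regions of similar width. A region but none with a score of at least 200 was found at 11 of the 99 members, against a background of 1.76% of genes. When only regions with a score of at least 200 were counted, 72 of the 99 members had one, against 82.0% of all genes.

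**Figure D1:**
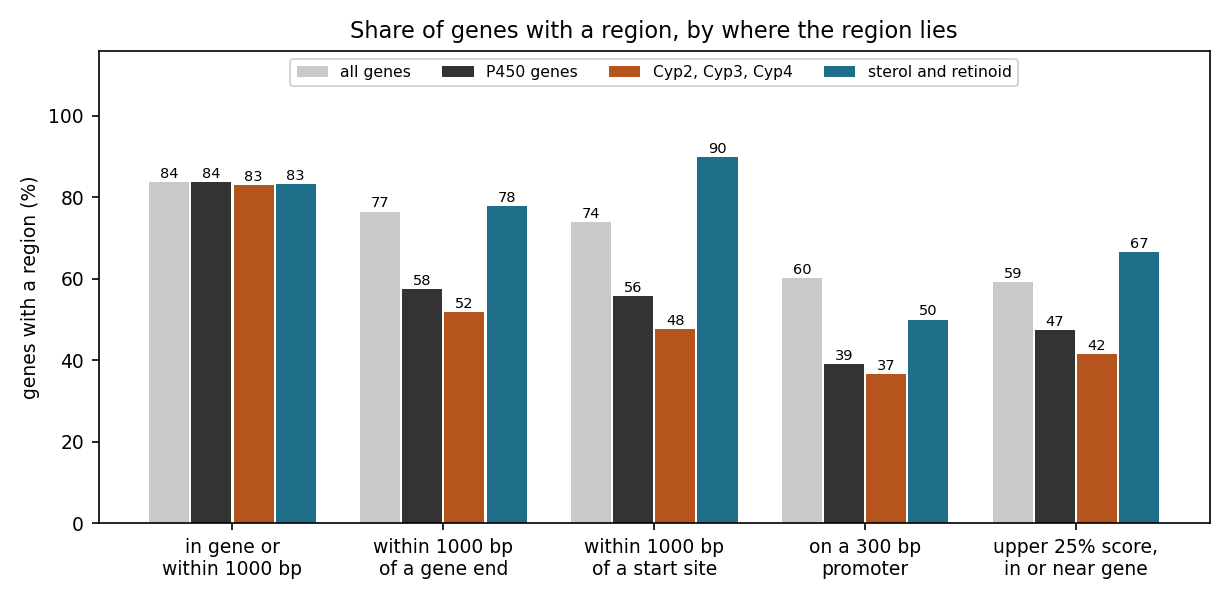
Share of genes (y axis, %) with a region in 5 placements (x axis), for all protein-coding genes, all P450 genes, the families Cyp2, Cyp3 and Cyp4, and the sterol and retinoid members; bars are single shares with no error bar. The shares in or near the gene are alike, and those at gene ends, start sites and promoters are lower for Cyp2, Cyp3 and Cyp4 than for all genes.

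The tandem families and the sterol and retinoid members had nearly the same share of genes with any region, and differed in where and how densely the regions lay. Of 77 genes in Cyp2, Cyp3 and Cyp4, 64 (83.1%) had a region, and of 18 sterol and retinoid genes 15 (83.3%), an order that turned around when only the gene itself or 500 bp to each side was counted. At a gene end the counts were 40 of 77 (51.9%) and 14 of 18 (77.8%), against a background of 76.5%. Near a start site they were 30 of 63 (47.6%) and 9 of 10 (90%), against a background of 74.0%. On the promoter itself they were 23 of 63 (36.5%) and 5 of 10 (50%), both below the background of 60.3%. Density was 0.647 regions per 10 kb in the tandem families and 1.70 in the sterol and retinoid genes, on either side of the 1.24 of all genes. The second value is uneven within its group. The 3 Cyp26 genes held 27 of its 100 regions, at 6.67 per 10 kb. Single genes ran from 0 at Cyp8b1, Cyp11b1 and Cyp11b2, 0.46 at Cyp7b1 and 0.768 at Cyp19a1 up to 13.8 at Cyp26a1. The median scores were 440.5 and 408. A region in the upper 25% of the list by score, which means at least 768, was found at 32 of the 77 (41.6%) and at 12 of the 18 (66.7%), against a background of 59.3%. Grouping by position gave the same order of density, and here the share with a region also differed. Of 73 members with another member within 100000 bp, 58 (79.5%) had a region at 0.629 per 10 kb, while of 26 members with none so near, 25 (96.2%) had one at 1.52 per 10 kb. The 10 genes of Cyp2, Cyp3 and Cyp4 that stand apart in this way, among them Cyp2r1 and Cyp2u1, all had a region, at 1.49 per 10 kb. Beside these shares, a region was found at 83.8% of all genes.

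The retinoic acid hydroxylases were the most densely reached members. Cyp26a1, the main enzyme that clears retinoic acid in the embryo, lies 4417 bp beyond the end of Cyp26c1 on chromosome 19, and the 16.4 kb from the start of Cyp26c1 to the end of Cyp26a1 held 14 regions, or 852 per Mb where the chromosome as a whole held 114. Cyp26a1 had 8 regions covering 69.1% of its locus, with scores in genome order of 408, 228, 230, 132, 1332, 671, 118 and 968. The region that spans its start site (chromosome 19, 37697701 to 37699180) was 1480 bp wide and scored 230, lower than nearly all regions of that width (percentile 0.0303), whereas the region that begins 1733 bp after the start site scored 1332 (percentile 90.6). The scores along this 1 gene thus ran from 118 to 1332. Cyp26c1 had 6 regions with scores of 135, 125, 162, 518, 922 and 618, and no region on its promoter, the nearest ending 530 bp before the start site. Its regions at 1211 to 1470 bp and 1561 to 2140 bp after the start were also among the lowest for their width (percentiles 0.554 and 0.131). Cyp26b1, the family member on chromosome 6 that acts in limb and bone, had 13 regions with a median score of 205 and a highest score of 813, and again none on its promoter, the nearest beginning 890 bp after the start site. The Cyp26 genes together held 27 regions at 6.67 per 10 kb, with a median score of 228 and a median percentile of 25.9 at matched width, so they were reached often and at low scores.

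Cyp51, Cyp1b1 and Cyp20a1 are single genes with CpG-rich starts and show how differently such starts appear in the list. Cyp51 encodes lanosterol demethylase, the P450 step of cholesterol synthesis. Its 3 regions lay around the start site and scored 790 (713 to 174 bp before it), 372 (113 bp before to 506 bp after) and 568 (647 to 1366 bp after), and the remaining 22657 bp of the gene held none. Cyp1b1, which oxidises steroids and polycyclic hydrocarbons under control of the aryl hydrocarbon receptor, had 5 regions with scores of 741 upstream, 188 across the start site, 352, 1280 and 791. The region across its start site was 350 bp wide (percentile 4.96), and the next, 1590 bp wide and 361 to 1950 bp after the start, was at percentile 0.866. The region with 1280, 4541 bp after the start, was at percentile 93.6. Cyp20a1, an orphan P450 of unknown substrate, had 1181 at a region that ends 780 bp before its start site, 603 at a region that begins 141 bp after it, and nothing on the promoter between them. It is the member with the most CpG sites on a promoter without a region. The sequences of the 250 bp before these start sites and that of Cyp26a1 are shown 5' to 3' on the strand of the gene, from RefSeq on GRCm38.p6, with each CpG in capitals.
Cyp26a1 chr19:37697558-37697807 (+ strand): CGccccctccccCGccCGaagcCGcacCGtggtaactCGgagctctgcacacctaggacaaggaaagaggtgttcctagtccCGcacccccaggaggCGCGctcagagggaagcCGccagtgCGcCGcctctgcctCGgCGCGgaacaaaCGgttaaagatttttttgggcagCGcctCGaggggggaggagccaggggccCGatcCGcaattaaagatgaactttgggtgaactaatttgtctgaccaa
Cyp51 chr5:4104698-4104947 (- strand): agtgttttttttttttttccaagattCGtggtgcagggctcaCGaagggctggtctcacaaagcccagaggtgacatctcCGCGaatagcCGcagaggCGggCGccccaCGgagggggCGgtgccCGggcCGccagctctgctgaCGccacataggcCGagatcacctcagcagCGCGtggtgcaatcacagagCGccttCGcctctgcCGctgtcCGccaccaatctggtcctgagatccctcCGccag
Cyp1b1 chr17:79715062-79715311 (- strand): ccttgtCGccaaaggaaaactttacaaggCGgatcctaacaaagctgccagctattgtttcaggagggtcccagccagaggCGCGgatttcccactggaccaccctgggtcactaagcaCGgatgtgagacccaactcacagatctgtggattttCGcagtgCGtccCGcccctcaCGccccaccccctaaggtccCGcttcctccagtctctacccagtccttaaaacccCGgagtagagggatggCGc
Cyp20a1 chr1:60343050-60343299 (+ strand): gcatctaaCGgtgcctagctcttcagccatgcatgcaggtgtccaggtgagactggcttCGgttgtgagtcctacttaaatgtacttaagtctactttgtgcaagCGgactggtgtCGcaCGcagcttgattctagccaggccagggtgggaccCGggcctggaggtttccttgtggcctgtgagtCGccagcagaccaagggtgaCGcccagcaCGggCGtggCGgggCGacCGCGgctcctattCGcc
The stretches hold 20, 20, 12 and 15 CpG sites, and 58.0% to 62.8% of their bases are G or C.

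**Figure D2:**
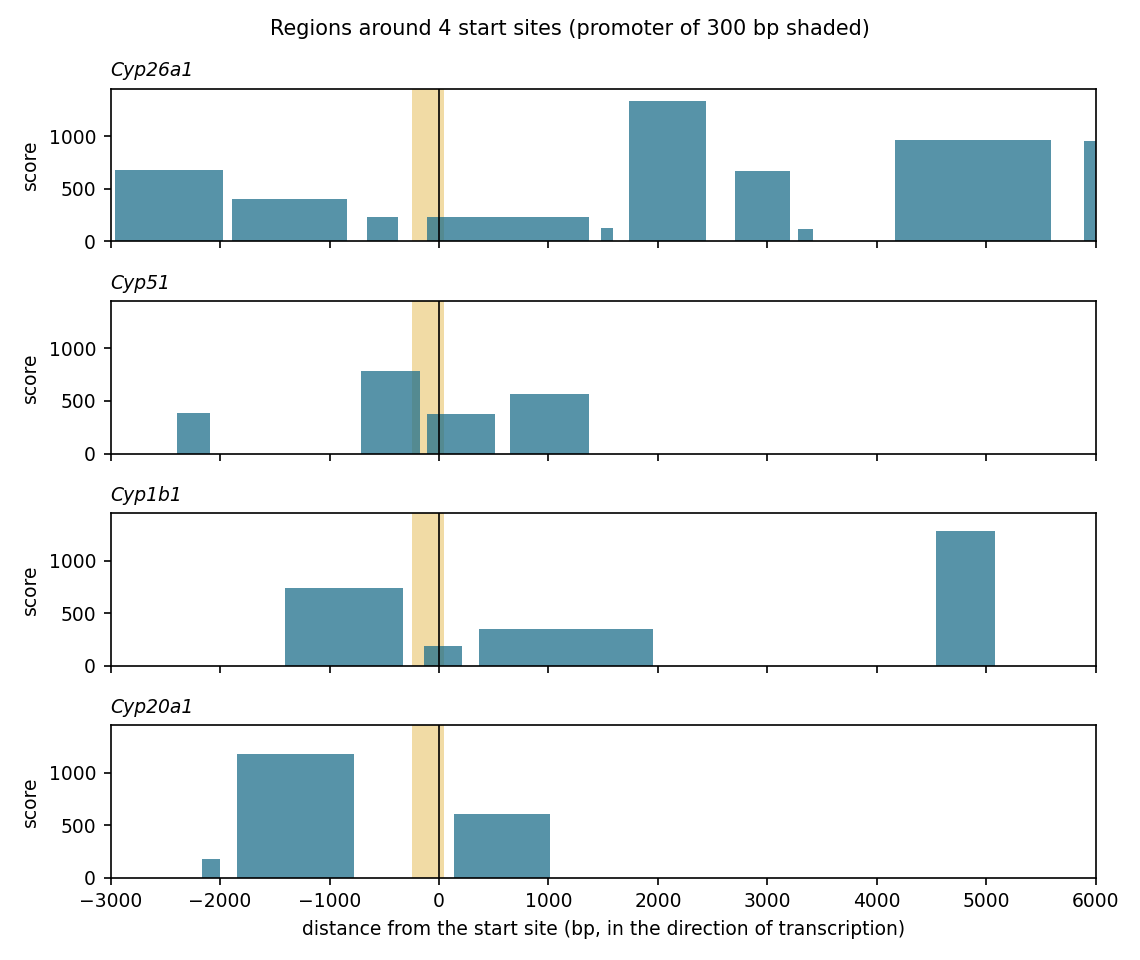
Regions from 3000 bp before to 6000 bp after the start sites of Cyp26a1, Cyp51, Cyp1b1 and Cyp20a1; the x axis is the distance in bp in the direction of transcription, the y axis the authors' score of each region, the box width its width, and the shaded band the 300 bp promoter. The regions over the start sites of Cyp26a1 (230) and Cyp1b1 (188) are lower than the highest region further into each gene (1332 and 1280), narrow regions of Cyp26a1 at 132 and 118 are lower still, and Cyp20a1 has none on the band.

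The promoter of Cyp26a1 also carries the direct repeat through which retinoic acid receptors are known to act on this gene. On the strand of the gene it reads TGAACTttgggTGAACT, and on the other strand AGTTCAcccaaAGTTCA, with the hexamers in capitals, at chr19:37697776-37697792, 32 to 16 bp before the start site. It lies inside the 1480 bp region with the score of 230. A pair of hexamers AGTTCA or AGGTCA in the same orientation and 5 bases apart, searched on both strands, was found in 5 of 17492 promoters (0.0286%), and among the 77 members in Cyp26a1 alone. The core GCGTG bound by the aryl hydrocarbon receptor, which itself contains a CpG, was present in 38.5% of all promoters and 17 of 77 members (22.1%). Cyp1a1 has 1 copy 54 bp before its start site, Cyp1b1 has 1 at 76 bp before, and Cyp46a1 has 4. The core CACCCCA of the sterol regulatory element was found in 7.36% of all promoters and 4 of 77 members, and was not in this window of Cyp51. Only this exact spelling was searched, so its absence does not show that the Cyp51 promoter lacks such an element. The GC box GGGCGG, which also contains a CpG, was in 46.3% of all promoters, in 11 of 63 genes of the tandem families (17.5%) and in 6 of 10 sterol and retinoid genes. CCAAT was in 39.1% of all promoters and 35 of 77 members (45.5%). Each is a match of letters and not evidence of binding.

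Genes of bile acid and sterol breakdown ranged from no region to 13, and some of their scores were high. Cyp7a1, the rate-limiting enzyme of bile acid synthesis, had 3 regions that scored 1540, 963 and 950. Cyp7b1, the oxysterol hydroxylase, had 8 regions over a gene of 171947 bp, from 112 to 1641, and the highest (chromosome 3, 18158311 to 18158820) was at percentile 98.2 for its width. Cyp39a1, another oxysterol hydroxylase, shared with Cyp26b1 the highest number of regions among members, 13, and 4 of these scored over 1000 (1257, 1187, 1182 and 1158). A number of 10 or more regions was found at 4 of the 99 members, Cyp39a1, Cyp26b1, Cyp27a1 and Cyp11a1, against a background of 18.2% of genes. Cyp27a1, the mitochondrial sterol hydroxylase, had 10 regions that ranged from 118 to 1146, and the region over its start site scored 178 (percentile 4.75). Cyp46a1, the cholesterol hydroxylase of neurons, had 6 regions. The highest of them, 927, was 1400 bp wide and ended 146 bp before the start site. Cyp8b1, a short gene of 1950 bp that sets the mix of bile acids, had none.

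Steroid and vitamin D genes ranged from densely reached to not reached. Cyp11a1, which begins steroid synthesis by cleaving the cholesterol side chain, had 10 regions with scores from 146 to 797. The last of them ended 13756 bp after the start site, and the remaining 15251 bp of the gene held none. Cyp17a1 had 3 regions (761, 1038 and 643) that covered 47.0% of its locus. Cyp19a1, the aromatase gene, had 8 regions from 112 to 883, and none on the promoters of its 3 start sites. Cyp21a1, the 21-hydroxylase gene, had a single region of 110 bp with a score of 118. It lay outside the gene, and its part within the window covered 0.315% of the locus. Cyp11b1 and Cyp11b2, the adjacent genes of the last steps to corticosterone and aldosterone, had no region, and neither had any of the 21.3 kb that they span. Cyp24a1, which inactivates vitamin D, had 6 regions with a highest score of 542, and Cyp27b1, which activates it, had 2 (538 and 482).

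Within the tandem families, coverage differed widely between subfamilies. In Cyp2c, which holds many drug and arachidonic acid oxidases of liver, 8 of 15 genes had a region (53.3%, background 83.8%), at 0.144 per 10 kb. Cyp2c37, Cyp2c38, Cyp2c50, Cyp2c65, Cyp2c66, Cyp2c68 and Cyp2c69 had none. The 599.7 kb of chromosome 19 from Cyp2c29 to Cyp2c69 held 4 regions, or 6.67 per Mb against 114 for the chromosome, and a stretch of 234 kb (39311011 to 39545120) held none at all. Of 6652 gaps between regions on chromosome 19, 2 were at least that long. In contrast Cyp2d, the debrisoquine hydroxylase subfamily, had a region at each of its 8 genes, all 8 at a gene end (backgrounds 83.8% and 76.5%). The median gene length was 4430 bp in Cyp2d and 40240 bp in Cyp2c, so the windows around the ends make up more of a Cyp2d locus. The 2 stretches of chromosome 15 that hold Cyp2d genes had 192 and 289 regions per Mb, against 94.2 for the chromosome. All 5 Cyp2d genes in the promoter table had a region on the promoter (background 60.3%). The scores were 657 at Cyp2d11, 1405 at Cyp2d10, 552 at Cyp2d9, 1405 at Cyp2d40 and 681 at Cyp2d26. Cyp2j, a subfamily of arachidonic acid epoxygenases, had regions at 6 of 7 genes (85.7%, background 83.8%), Cyp2j13 being the exception. The promoters of Cyp2j5, Cyp2j6 and Cyp2j9 had one with scores of 857, 613 and 626, and the highest score of the subfamily was 911, in Cyp2j6.

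Cyp3a and Cyp4a had low scores, which in Cyp3a but not in Cyp4a were also low for the width of the regions. In Cyp3a, a subfamily that handles many drugs, 7 of 9 genes had regions (77.8%, background 83.8%). There were 12 regions in all, with a median score of 263 and a highest of 490 at Cyp3a57. None reached the upper 25% of the list, and the median percentile at matched width was 21.3. Cyp3a41a and Cyp3a41b had no region. In Cyp4a, the fatty acid omega-hydroxylases that respond to PPAR alpha, all 8 genes had a region (background 83.8%). Their highest scores were 118 to 430 in 6 of them, 937 in Cyp4a30b and 940 in Cyp4a10. The 11 regions had a median score of 262 and a median width of 270 bp, and for that width they were not low, with a median percentile of 68.5. Of the 8, Cyp4a29 alone had a region at a gene end (background 76.5%). Cyp4f, which oxidises leukotrienes and vitamin E, was different again. All 9 genes had regions at an end (background 76.5%). Density was 1.5 per 10 kb, with a median score of 463 and the highest, 1397, at both Cyp4f15 and Cyp4f18. All 8 Cyp4f genes in the promoter table had a region within 1000 bp of the end opposite the start site, where the background was 33.8%. On the promoter 6 of the 8 had one (background 60.3%). The remaining genes of the families had highest scores of 1637 at Cyp2r1, the vitamin D 25-hydroxylase, 1477 at Cyp4b1, 1376 at Cyp2f2, 1170 at Cyp4v3, 950 at Cyp2s1, 913 at Cyp2e1, the ethanol-inducible enzyme, 868 at Cyp2u1, 621 at Cyp4x1, 542 at Cyp2w1, 485 at Cyp2ab1 and 173 at Cyp2t4. Cyp2g1 had none, as had Cyp2a12 and Cyp2a22. Of the Cyp1 genes, Cyp1a2 had 1 region of 2100 bp that scored 1052, and Cyp1a1 had 3 that scored 320, 696 and 131.

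**Figure D3:**
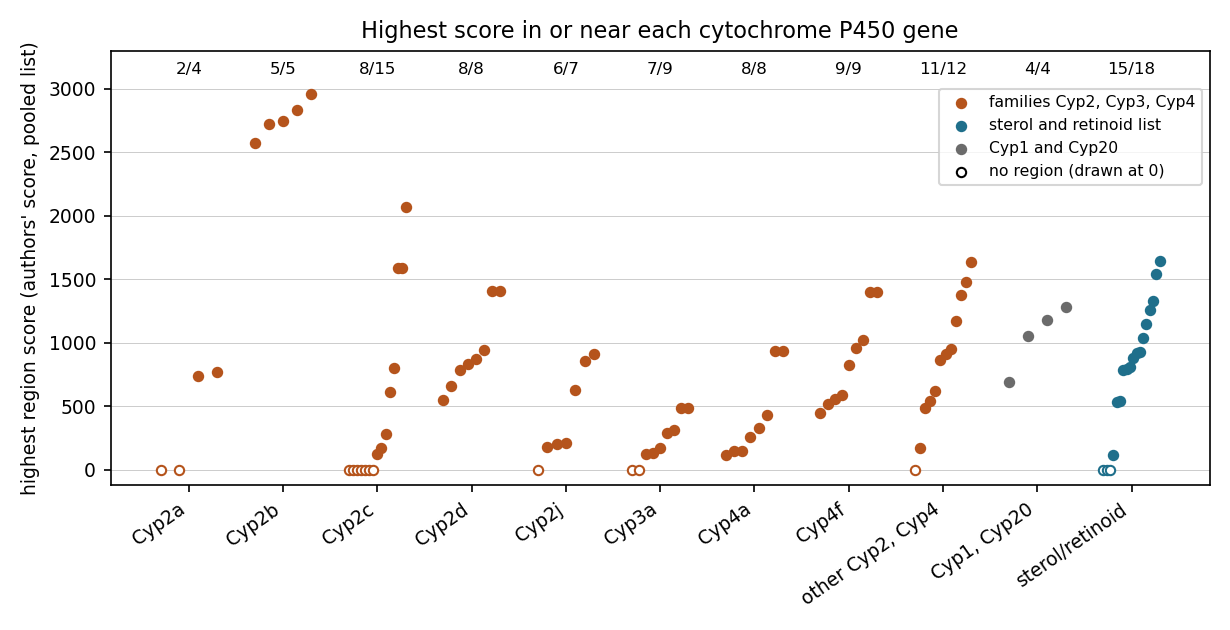
Highest region score (y axis, authors' score) of each P450 gene, 1 point per gene, by subfamily or group (x axis); open points at 0 have no region, and the numbers above are genes with a region of genes in all. The 5 Cyp2b genes sit between 2570 and 2963, above all other members, and no Cyp3a gene exceeds 490.

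The Cyp2b genes, among them Cyp2b10, which is induced by phenobarbital in liver, carried the highest scores of all members, in a single region each. The scores were 2720 at Cyp2b10 (chromosome 7, 25917051 to 25917730), 2963 at Cyp2b13 (26088371 to 26089060), 2570 at Cyp2b9 (26200871 to 26201600), 2747 at Cyp2b23 (26672441 to 26673070) and 2832 at Cyp2b19 (26766891 to 26767620). The 5 regions lay inside the genes, with their centres 5375 to 9426 bp from the far end, and were 630 to 730 bp wide. For that width they were at percentiles of 98.8 to 99.2. Of 21790 regions of 630 to 730 bp in the list, 260 (1.19%) scored 2500 or more, a bound set after these scores were seen, and the median was 727. The other 9 regions of these genes scored from 130 to 720. Only 1 other region of the P450 genes reached 2000, a 730 bp region over the start site of Cyp2c70 with 2068 (percentile 97.8). Whether reads from 1 copy were also placed on others was not tested, and the score of each single copy is uncertain for that reason.

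**Figure D4:**
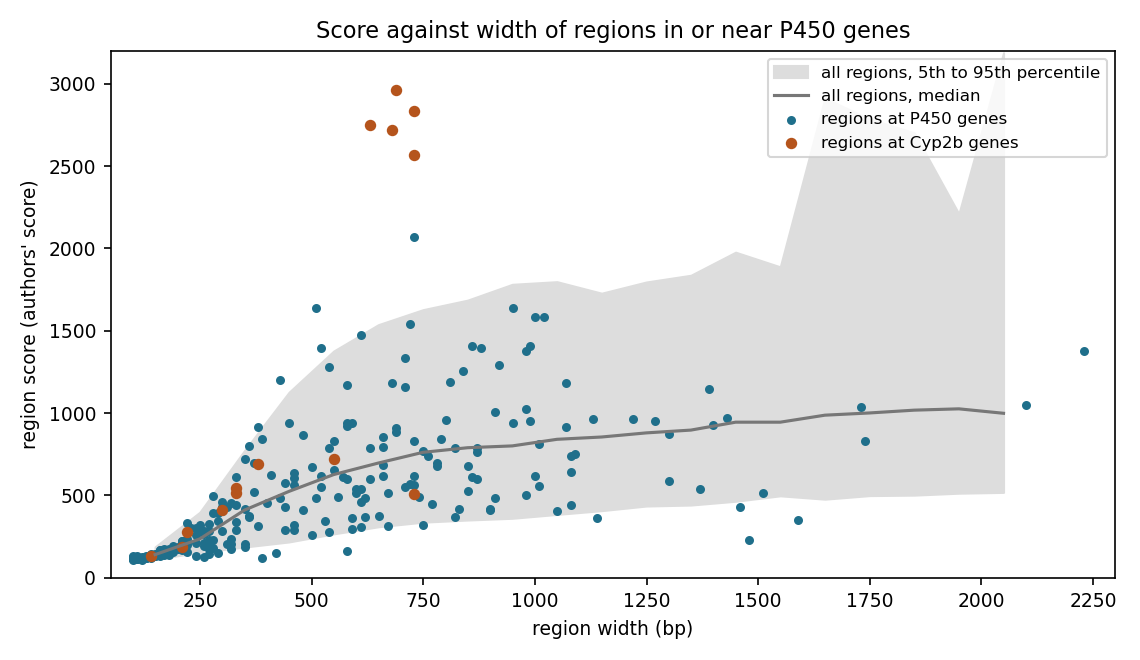
Score (y axis, authors' score) against width in bp (x axis) of each region in or near a P450 gene, with those of Cyp2b genes in orange; the grey band is the 5th to 95th percentile of all regions in steps of 100 bp and the line their median. At widths of 630 to 730 bp, 5 Cyp2b regions with 2570 to 2963 stand above the band.

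Promoters of the P450 genes were poor in CpG, and promoters poor in CpG were seldom reached in any gene. The median number of CpG sites in the 300 bp promoter was 2 in the tandem families, 8 in the sterol and retinoid genes and 13 in all genes. With 0 to 3 CpG sites, 14 of 50 members (28.0%) had a region on the promoter, against a background of 14.2%. Most of the 14 belong to 3 tandem subfamilies, whose copies are not independent. They include 5 Cyp2d genes, 3 Cyp3a genes, and Cyp4f15, Cyp4f16, Cyp4f18 and Cyp4f37. With 4 to 9 sites the count was 7 of 17 (41.2%, background 48.4%). With 10 or more it was 9 of 10 (90%, background 80.4%), Cyp20a1 being the exception. Within the lowest and the highest of these ranges the share of members was not below that of all genes. In the middle range, and over all promoters together, it was below. Whether CpG number bears on this difference was not tested. Regions on the CpG-rich promoters of members had a median score of 443.5 and a median percentile of 16.6 at matched width, against 560 and 34.9 for all promoters with 10 or more sites. The ranges were set after the data were examined.

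**Figure D5:**
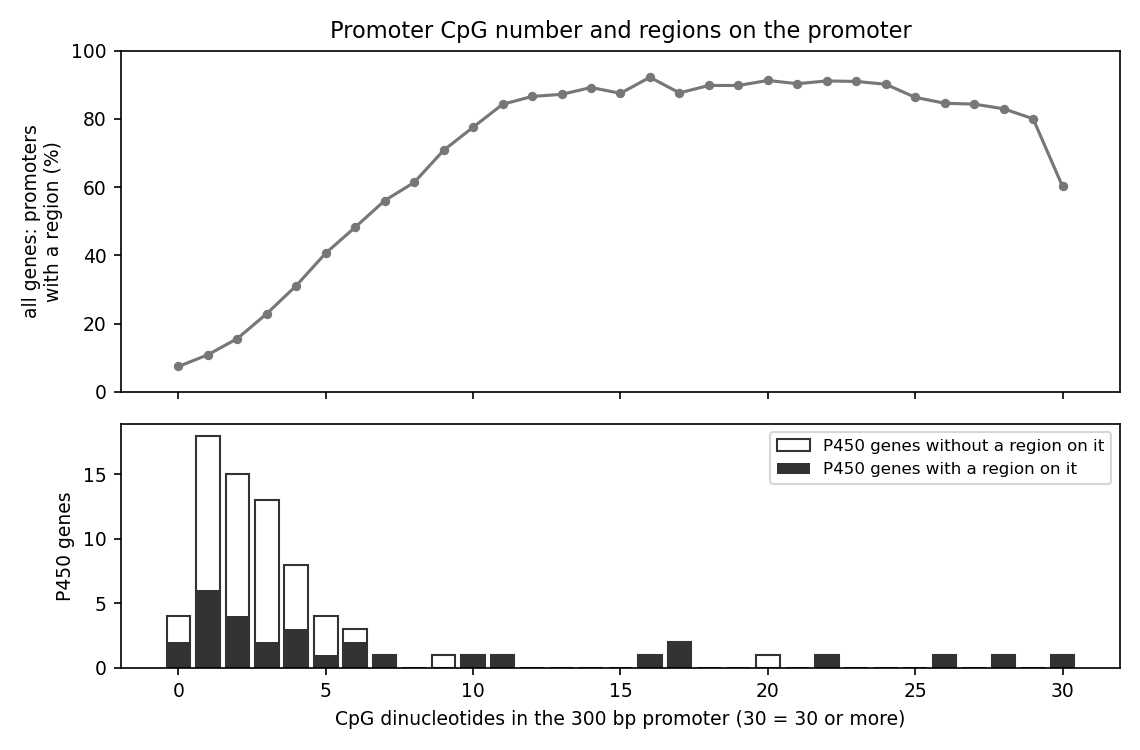
Upper panel, share of all promoters with a region (y axis, %) by number of CpG dinucleotides in the 300 bp promoter (x axis); lower panel, number of P450 genes with that CpG number, filled where a region lies on the promoter. Most P450 genes sit at 0 to 3 CpG sites, where the share for all genes is low.

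A promoter without any CpG site was found in 4 members, and 2 of these had a region on it, against a background of 7.45% of such promoters. They were Cyp2c55 and Cyp3a59, which had regions of 180 and 440 bp across the start site, with scores of 172 and 288. The 250 bp before the start sites are shown for both, for Cyp3a25, whose promoter is close to that of Cyp3a59, and for Cyp3a41a, a member of the same subfamily without a region, again with each CpG in capitals.
Cyp2c55 chr19:39006769-39007018 (+ strand): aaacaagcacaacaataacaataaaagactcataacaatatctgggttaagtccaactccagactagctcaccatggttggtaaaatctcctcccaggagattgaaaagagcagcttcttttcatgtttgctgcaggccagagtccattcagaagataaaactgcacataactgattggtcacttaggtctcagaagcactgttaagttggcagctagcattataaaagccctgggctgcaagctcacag
Cyp3a59 chr5:146079008-146079257 (+ strand): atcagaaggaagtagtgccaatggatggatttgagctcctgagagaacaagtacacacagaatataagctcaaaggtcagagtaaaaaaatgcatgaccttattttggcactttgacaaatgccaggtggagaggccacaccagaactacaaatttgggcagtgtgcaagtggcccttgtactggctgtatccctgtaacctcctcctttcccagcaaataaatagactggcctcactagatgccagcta
Cyp3a25 chr5:146009619-146009868 (- strand): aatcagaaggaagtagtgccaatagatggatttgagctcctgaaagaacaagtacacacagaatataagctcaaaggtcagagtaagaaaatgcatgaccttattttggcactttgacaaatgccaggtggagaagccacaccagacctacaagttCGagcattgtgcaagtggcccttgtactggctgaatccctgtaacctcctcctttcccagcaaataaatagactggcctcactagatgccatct
Cyp3a41a chr5:145720137-145720386 (- strand): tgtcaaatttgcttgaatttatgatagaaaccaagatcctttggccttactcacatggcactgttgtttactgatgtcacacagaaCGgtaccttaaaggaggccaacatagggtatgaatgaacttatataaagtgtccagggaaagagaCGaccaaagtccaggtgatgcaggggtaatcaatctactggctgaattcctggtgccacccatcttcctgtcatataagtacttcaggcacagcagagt
Cyp3a25 holds 1 CpG and Cyp3a41a 2 in these stretches.

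Near-identical promoters were alike in whether a region lay on them, while the rest of the genes was not always alike. Of 193 pairs of promoters within a subfamily, 11 were at least 90% identical over 300 bp, and in all 11 either both promoters had a region (2 pairs) or neither had (9 pairs). Of all 193 pairs 128 (66.3%) were alike in this sense. The 11 pairs are not independent, since 6 of them join the same 4 genes, Cyp3a16, Cyp3a41a, Cyp3a41b and Cyp3a44. Among these Cyp3a16 and Cyp3a44 had 2 regions each inside the gene (scores 487 and 166, and 127 and 117), whereas Cyp3a41a and Cyp3a41b had none. Cyp3a25 and Cyp3a59, at 95.7%, had regions at matching places. One ran from 232 bp before to 227 bp after the start site in Cyp3a25 and from 217 before to 222 after in Cyp3a59 (scores 291 and 288), and another lay from 1282 to 903 and from 1277 to 948 bp before it (scores 316 and 291). Cyp3a57, at 90.8% to Cyp3a59, had regions at 498 bp before to 241 bp after (score 490) and at 1258 to 939 bp before (score 238). Cyp2a4 and Cyp2a5, testosterone and coumarin hydroxylases at 97.7%, had no region on the promoter. Each had a region of 460 bp, which began 1589 and 1602 bp after the start site (scores 608 and 638), and another just past the gene end (737 and 773). Cyp2b9 and Cyp2b13 had promoters 99.3% identical and no region on them. Whether the reads of such copies were told apart was not tested.

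Genes that serve or control the P450 enzymes were nearly all reached. Of 58 such genes, 57 (98.3%) had a region, against the background of 83.8%, and the promoter was reached in 35 of the 43 found in the promoter table (81.4%, background 60.3%). Their median promoter held 17 CpG sites. All 6 electron donors had regions, with highest scores of 2252 at Fdxr and 1382 at Fdx1, the mitochondrial pair, 1640 at Cyb5b and 1238 at Cyb5a. Por, the reductase of microsomal P450 enzymes, had the lowest of the 6 highest scores, 1081, and 22 regions, and is named for its role. Ptgis and Tbxas1, P450 genes under other symbols, had 11 and 38 regions with highest scores of 1267 and 1872. The 7 xenobiotic receptor genes were all reached, with 1313 at Nr1i2, 1228 at Hnf4a, 1185 at Ppara and 1051 at Arnt. So were the 15 genes of the retinoid pathway, with 1613 at Aldh1a1, 1597 at Rdh10, 1332 at Rarg and 1201 at Rarb. Over all regions of that list, however, the median score was 358 and the median percentile at matched width 29.1, below the 477 and 48.9 of all genes. Of 21 genes of sterol synthesis and its control, 20 had a region, among them Srebf2 (1957), Idi1 (1590) and Scap (1585). Hmgcs1, the cytosolic HMG-CoA synthase, had none, although its promoter holds 26 CpG sites. The 7 genes of steroid, bile acid and vitamin D control all had regions, with 1783 at Nr1h4, 1418 at Star, 1202 at Vdr and 1185 at Nr5a2.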

How the data were processed

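DNA of 8 lines was enriched with a SureSelect capture kit from Agilent, per the labels' protocols. The tools named are Novoalign 3.7.1 and Picard, and the build is mm10, per the submitters' processing notes. How the authors called and scored the regions is not stated there. The values are a score per region, deposited by the authors as whole numbers for the series as a whole. Its track line names narrowPeak as the type, per the file headers. No value belongs to a single line, so depth per line is unknown and the lines could not be compared. Regions were assigned to genes by position with pandas 2.3.3 (Python 3.11.15), with at least 1 bp shared and a window of 1000 bp, after a test of the code on simulated regions. Genes and promoters came from RefSeq GRCm38.p6. The start sites are those of the promoter table, and in 36 of 77 members the one used lies apart from the outer bound of the gene. Members with a trailing letter, such as Cyp4a12a, were kept. Promoter identity is the share of identical columns in a global alignment (Biopython 1.88). Named genes were the sterol, retinoid, Cyp1 and Cyp20 members, the highest scoring member of each subfamily, the 8 members with the highest scores and the 8 with the most regions, members without a region, and up to 4 of each partner list (some items that the rule or the labels name are not reported here); others are named as values of their group. Members and lists were chosen with earlier results of these data known. Alternatives were other windows, midpoints, score thresholds, widths and groupings.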

Additional observations from a re-analysis of the deposited data

How the results depend on the processing

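Of 40 alternatives over 9 results, 31 left the value within its limits (1.5 times for counts and ratios, a 95% interval for differences of shares), 6 moved it beyond them and 3 turned its direction. The interval takes genes as independent, which neighbouring copies are not. It served only to sort the alternatives and is no test between groups of genes. With only the upper 25% of regions by score, 47 of 99 members had a region in or near the gene, 21 of 99 at an end and 9 of 77 on the promoter. On the same shortened list the shares of all genes were 59.3%, 39.4% and 22.0%, each above that of the members. The cause was not tested. The median score of members was 0.905 times that of all genes and 1.003 times with regions of 400 to 800 bp. The share of genes with a region, Cyp2, Cyp3 and Cyp4 minus sterol and retinoid members, was -0.216 percentage points. It was 4.04 with no window and 5.34 with 500 bp, so it has no stable direction. It was -25.8 at gene ends, -25.1 with the upper 25% by score and -16.7 between members with and without another member within 100000 bp; the cause was not tested. Density was 0.381 times as high in the tandem families as in the sterol and retinoid members. The ratio was 0.394 with overlapping loci merged and 0.397 with no window. Between members with and without another member within 100000 bp, a different grouping, it was 0.413. No alternative was run without the Cyp26 genes. The alternatives for promoters and the one without Cyp2b genes were chosen after seeing the data. No paired analysis was possible because the list holds no value for a line, and leaving out each line in turn could not be run for the same reason. The depth of the lines is unknown, and whether it bears on which genes have a region was not tested.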

Other observations

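Pairs of related genes carried the same high score in 3 cases. Of 33 member regions that scored 1000 or more, Cyp2d10 and Cyp2d40 on chromosome 15 both had 1405, in regions of 860 and 990 bp over the start site. Cyp4f15 on chromosome 17 and Cyp4f18 on chromosome 8 both had 1397, in regions of 880 and 520 bp. Cyp2c29 and Cyp2c23 on chromosome 19 both had 1586, in regions of 1000 and 1020 bp that lay before the start site of Cyp2c29 and inside Cyp2c23. These pairs were noticed among the values, and how often scores coincide by chance was not tested.

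Regions at the low end of the scale were frequent among members. Scores under 200 made up 26.2% of member regions and 19.7% of all regions, and the 11 members with no higher region (background 1.76%) included Cyp21a1, Cyp3a11, Cyp3a44, Cyp4a12a and Cyp4a12b. These shares are not matched for width, and in the list the 95th percentile of regions of 100 to 199 bp was 188. At matched width the median percentiles of members and of all genes were 48.1 and 48.9. Members also had a median of 2 regions, against 4 for all genes. In Cyp4a30b a region of 390 bp scored 123, at percentile 0.0317 for its width, beside another of 580 bp in the same gene that scored 937.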
